A study of Mus musculus with 6 samples.

Results

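Immediate early genes are switched on within minutes of a stimulus, without new protein synthesis, and their messages are short-lived. The 10 described here were Fos, Jun, Junb, Jund, Atf3, Egr1, Ier2, Ier3, Dusp1 and Zfp36, taken as every array probe whose platform gene symbol was one of these names. That gave 10 of the 25697 probes, 1 per gene, and 9 of the 10 genes were among the 8827 genes tested. Expression was measured in whole liver of wild-type C57BL/6 mice on Illumina BeadChip arrays, where a probe's intensity reports the labelled RNA it binds. Of 6 mice, 3 received Ad-MafG and 3 received Ad-Control, called Ad-CMV in the labels, and their livers were collected at 5 days after a fast of 4 to 6 h. Each array is 1 mouse, and the promoter of the Ad-MafG construct, the sex of the mice and their age are not stated in the labels. The comparison asks whether raising MafG, a small Maf transcription factor that can dimerise with FOS and with other basic leucine zipper proteins, goes with a different resting level of these genes.

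FOS and JUN proteins pair through leucine zippers to form the AP-1 transcription factor, and growth factors, cytokines and cell stress raise their genes through MAP kinases that act on SRF, ETS and CREB proteins at the promoters. In liver the group is known for its rise after partial hepatectomy and after injury. DUSP1 and ZFP36 close the loop, the first by removing phosphate from MAP kinases and the second by binding AU-rich messages and speeding their decay.

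Of 25697 probes, 12802 to 13042 were detected in Ad-MafG livers and 12079 to 12608 in Ad-Control livers. Across arrays the median non-normalized signal lay between 181.6 and 185.8 in Ad-MafG livers and between 160.6 and 180 in Ad-Control livers. Normalization removes that difference in brightness, and the fold changes below divide Ad-MafG by Ad-Control, in log2 units of normalized intensity, and were tested with limma and Benjamini-Hochberg adjustment over all 8827 genes. The Mafg probe itself was lower in Ad-MafG livers, at -0.54 (limma, adjusted p = 0.0341), so it does not check the labels on which every direction rests. The call for Mafg was lost in every single-array omission except that of Ad-Control 2, at an adjusted p of up to 0.109. All 8 hepatocyte markers were detected on every array, which matches the labelled tissue, but the Alb probe was dim. Its log2 intensity was 5.88 to 7.22 over the arrays, where that of Apoa1 was 15.12 to 15.24, so the Alb probe adds little to the match. The number of arrays, 3 in each group, limits the precision.

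None of the tested genes of this group passed the test. Of the 9 tested, 0 were called higher and 0 lower, where 9.91% of all genes were called, 6.29% higher and 3.63% lower (limma, adjusted p under 0.05). At an unadjusted p under 0.05 there were 2, Fos and Egr1, both with higher estimates in Ad-MafG. Of all genes 29.8% reached that level, and 15.5% did so with a higher estimate. Estimates for 7 of the 9 lay above 0 and those for Jun and Zfp36 below it, against 47.2% of all genes above 0, and the median log2 fold change was 0.17 for the 9 genes and -0.02 for all genes. Fos, Atf3 and Egr1 had the highest estimates, and for each the range within the Ad-MafG livers was wider than the difference between the group means. On the normalized scale only Junb had all 3 Ad-MafG livers above all 3 Ad-Control livers, which is 1 of 9, while 18.3% of all genes did and 36.2% were separate in either direction. The count of calls was 0 in all 12 alternative settings that kept every array. It was 1 without Ad-Control 2, where Fos passed, and 1 without Ad-MafG 2, where Egr1 passed.

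**Figure D1:**
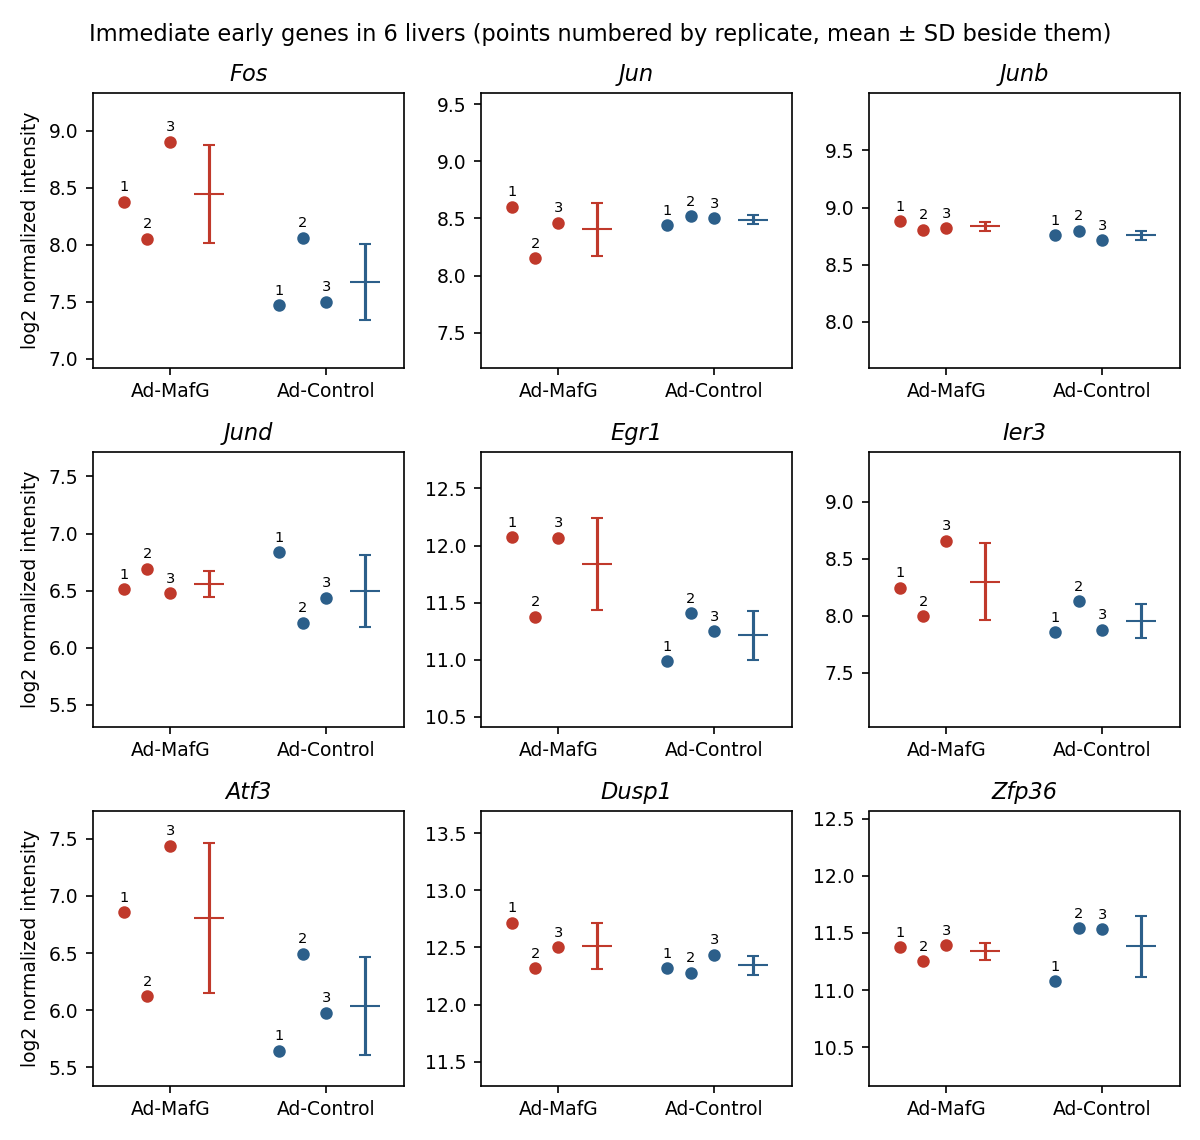
Normalized log2 intensity of the 9 tested immediate early genes (vertical axes) in 3 Ad-MafG livers (left of each panel) and 3 Ad-Control livers (right). Points are single livers numbered by replicate, the horizontal dash is the group mean and the bar is 1 SD; every panel spans the same log2 range, and the groups overlap in all panels except that of Junb.

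Promoter windows were read from RefSeq for 8 of the 10 genes, in build GRCm38.p6, and those of Egr1 and Ier2 were not searched. Those of Fos and Atf3 are shown because their estimates were the highest, that of Jun because its estimate was the lowest, and that of Dusp1 because it held the full CRE. Each runs from 150 bases before the annotated start to 20 bases after it, 5′ to 3′ along the gene, with capitals marking matches to the motifs named below.
Fos: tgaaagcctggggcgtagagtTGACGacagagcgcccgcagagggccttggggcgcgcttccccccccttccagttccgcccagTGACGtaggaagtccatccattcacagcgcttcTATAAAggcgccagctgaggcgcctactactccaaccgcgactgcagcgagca
Atf3: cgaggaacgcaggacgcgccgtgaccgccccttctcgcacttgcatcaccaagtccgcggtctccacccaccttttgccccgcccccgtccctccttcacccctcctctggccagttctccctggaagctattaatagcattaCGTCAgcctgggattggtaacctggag
Jun: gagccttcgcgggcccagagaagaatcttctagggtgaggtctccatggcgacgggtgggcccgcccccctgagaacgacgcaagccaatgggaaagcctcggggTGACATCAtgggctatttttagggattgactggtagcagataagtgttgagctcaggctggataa
Dusp1: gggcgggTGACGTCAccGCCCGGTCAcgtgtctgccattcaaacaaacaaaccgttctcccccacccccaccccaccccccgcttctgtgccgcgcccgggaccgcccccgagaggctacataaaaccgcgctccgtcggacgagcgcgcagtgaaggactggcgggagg
These lie at chr12:85473740-85473909 on the plus strand for Fos, and on the minus strand at chr1:191183314-191183483 for Atf3, chr4:95052203-95052372 for Jun and chr17:26508453-26508622 for Dusp1.

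Motifs were searched on both strands of the whole windows, from 250 bases before the start to 50 after it. The full CRE, TGACGTCA, which CREB and ATF proteins bind, was found in Dusp1 at -143, counted back from the start, and in 1.79% of all 32851 windows. Its shorter core TGACG, which also lies within each full CRE, was in 4 of the 8 windows (Fos, Atf3, Junb and Dusp1) and in 20.8% of all. Fos held it at -129 and -66 and Atf3, on the opposite strand, at -7. The variant TGACATCA, through which AP-1 is known to act on the Jun gene, stood at -45 in Jun and in 3.62% of all windows. The palindromic AP-1 site TGANTCA was in 0 of the 8 windows and in 7.81% of all. The core of the antioxidant response element, TGACNNNGC, a site for small Maf dimers with NRF2, was in Dusp1 at -133 on the opposite strand and in 12.4% of all. A CArG box, the SRF site, was in Zfp36 at -58 and in 1.63% of all. Bases beyond the windows, and the windows of Egr1 and Ier2, were not searched. The counts thus do not show that the other genes lack an SRF site. The letters of the TATA box, TATAAA, were in Fos at -33 and in Junb at 1, and in 13.6% of all. The Junb match begins at the annotated start itself rather than upstream of it, so it is given only as letters. These matches describe the letters in the windows and are not evidence of binding.

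Fos, the AP-1 subunit whose message is a standard mark of a recent stimulus, gave a non-normalized signal of 512.8, 423.2 and 686.8 in Ad-MafG 1, 2 and 3, against 262.7, 398.7 and 272.9 in Ad-Control 1, 2 and 3. After normalization its log2 intensity was 8.38, 8.05 and 8.90 in Ad-MafG livers and 7.47, 8.06 and 7.50 in Ad-Control livers. Ad-MafG 3 stood highest, and Ad-MafG 2 and Ad-Control 2 were level, so that the groups met at that pair. The log2 fold change was 0.77 (SE 0.25), with a 95% interval of 0.18 to 1.35 (limma, unadjusted p = 0.0168, adjusted p = 0.0909), which is 1.70-fold. Without Ad-Control 2 it was 0.96, with an adjusted p of 0.0498. Over the 6 fits without 1 array the adjusted p ran up to 0.224, and with every array kept it ran from 0.062 to 0.168.

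The estimates for the JUN family lay near 0. Jun, the main partner of FOS, gave signals of 575.2, 442.4 and 537.6 in Ad-MafG livers and 399.9, 501.6 and 430.2 in Ad-Control livers. Normalized, its log2 intensity was 8.60, 8.15 and 8.46 in Ad-MafG livers against 8.44, 8.52 and 8.50 in Ad-Control livers. Ad-MafG livers thus lay on both sides of the Ad-Control livers, which were closer to each other than to Ad-MafG 2. Its log2 fold change was -0.08 with a 95% interval of -0.40 to 0.23 (limma, adjusted p = 0.709), and it was 0.043 without Ad-MafG 2 and 0.036 with arrays scaled on the median of all probes.

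Junb, a JUN relative that is a weaker activator on many AP-1 sites, had log2 intensities of 8.88, 8.80 and 8.82 in Ad-MafG livers and 8.76, 8.80 and 8.72 in Ad-Control livers. The groups did not overlap, but Ad-MafG 2 and Ad-Control 2 differed by less than the rounding. Its log2 fold change of 0.08 had a 95% interval of -0.14 to 0.29 (limma, adjusted p = 0.592). Jund, the family member known for steady expression in resting cells, had log2 intensities of 6.51, 6.69 and 6.48 in Ad-MafG livers and 6.83, 6.22 and 6.44 in Ad-Control livers. Its Ad-Control livers spanned a wider range than its Ad-MafG livers, which lay inside it. The log2 fold change was 0.06 with a 95% interval of -0.33 to 0.46 (limma, adjusted p = 0.834), and the sign turned with array weights (-0.02), without Ad-MafG 2 (-0.003) and without Ad-Control 2 (-0.08).

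Atf3 encodes a stress-induced ATF family factor that pairs with JUN proteins. Its signal was 263.6, 208.1 and 329.8 in Ad-MafG livers and 160, 221.1 and 176.2 in Ad-Control livers, and the probe was not above background in Ad-Control 1, whose detection value was 0.0677 against a limit of 0.05. In log2 intensity this was 6.86, 6.12 and 7.44 in Ad-MafG livers and 5.65, 6.49 and 5.98 in Ad-Control livers. The order of livers was that of Fos in the Ad-MafG group, and Ad-Control 2 lay above Ad-MafG 2. The estimate, a log2 fold change of 0.77, was as high as that of Fos, but its SE was 0.35 and its 95% interval ran from -0.05 to 1.59 (limma, adjusted p = 0.191). Its log2 fold change was 0.33 with no background correction. The estimate was 1.10 when Ad-MafG 2 was left out (limma, adjusted p = 0.0821) and 0.45 when Ad-MafG 3 was (0.441).

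Egr1, a zinc finger transcription factor induced through SRF and ETS proteins, gave signals of 4746.1, 2968.3 and 4745.3 in Ad-MafG livers against 1792.1, 2906.7 and 2367.7 in Ad-Control livers. Normalized, the log2 intensity was 12.08, 11.38 and 12.07 in Ad-MafG livers and 10.99, 11.41 and 11.25 in Ad-Control livers. Ad-MafG 1 and 3 were alike and well above every Ad-Control liver, and Ad-MafG 2 lay just below Ad-Control 2. The log2 fold change was 0.63 (SE 0.21), with a 95% interval of 0.12 to 1.13 (limma, unadjusted p = 0.0214, adjusted p = 0.103), which is 1.54-fold. Without Ad-MafG 2 it was 0.85 and the adjusted p was 0.045. The other single-array omissions gave an adjusted p between 0.094 and 0.273.

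Ier2 and Ier3 are small early response genes, and IER3 is known to modulate cell survival. The Ier2 probe was not above background on any of the 6 arrays. Its signal was 148.3, 136.9 and 127.6 in Ad-MafG livers and 130.9, 131.2 and 129.9 in Ad-Control livers (exact two-sided permutation test, p = 0.4, where 3 livers against 3 can give no p below 0.1). Ier2 was therefore left out of the fit and has no fold change. Ier3 had log2 intensities of 8.25, 7.99 and 8.66 in Ad-MafG livers and 7.86, 8.13 and 7.88 in Ad-Control livers. Ad-MafG 1 and 3 lay above all Ad-Control livers and Ad-MafG 2 below Ad-Control 2, as for Egr1. The log2 fold change was 0.35 with a 95% interval of -0.08 to 0.77 (limma, adjusted p = 0.242). It was 0.17 when Ad-MafG 3 was left out (0.546) and 0.50 when Ad-MafG 2 was (0.131).

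The feedback genes had estimates close to 0. Dusp1 gave signals of 7311.3, 5567.5 and 6367.1 in Ad-MafG livers and 4490, 5250.8 and 5377.3 in Ad-Control livers. Its log2 intensity was 12.72, 12.32 and 12.50 in Ad-MafG livers and 12.32, 12.28 and 12.44 in Ad-Control livers. Before normalization the groups were separate, and after it Ad-MafG 2 fell among the Ad-Control livers. The log2 fold change was 0.17 with a 95% interval of -0.13 to 0.47 (limma, adjusted p = 0.42), and it was -0.02 with arrays scaled on the median of detected probes.

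Zfp36 had log2 intensities of 11.37, 11.25 and 11.39 in Ad-MafG livers and 11.08, 11.54 and 11.53 in Ad-Control livers. The Ad-MafG livers lay between Ad-Control 1, which was lowest, and the other two Ad-Control livers. Its log2 fold change of -0.04 had a 95% interval of -0.39 to 0.30 (limma, adjusted p = 0.87) and turned to 0.02 with array weights, 0.04 without Ad-Control 2 and 0.03 without Ad-Control 3.

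**Figure D2:**
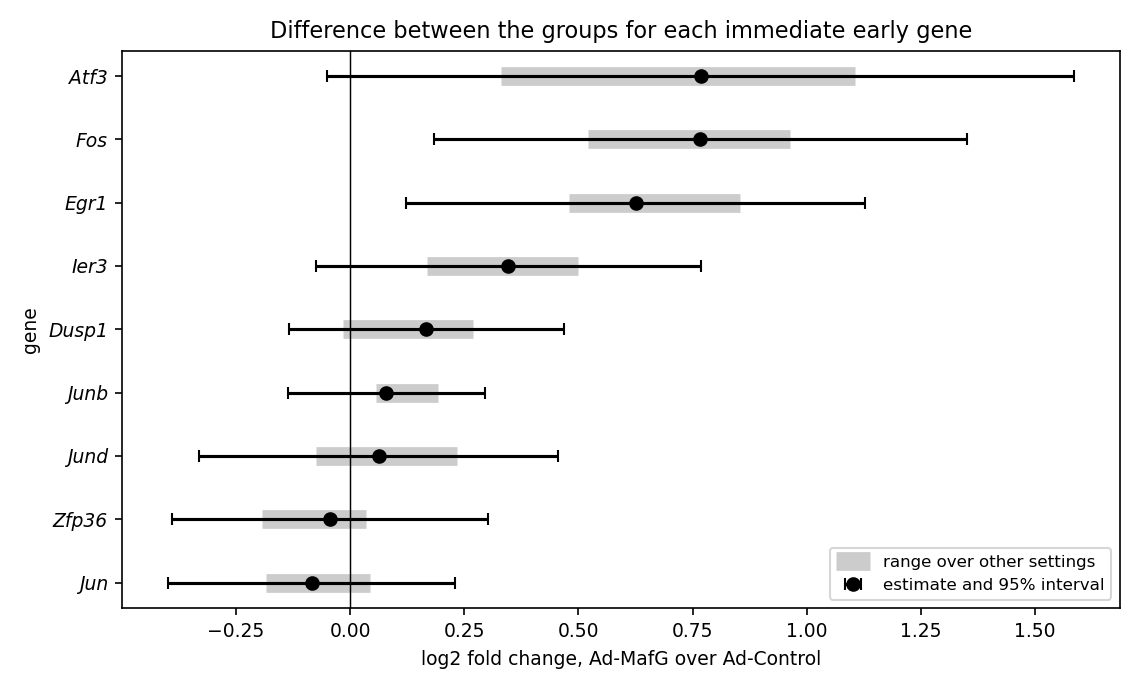
Log2 fold change, Ad-MafG over Ad-Control, of the 9 tested genes. Points and black bars give the limma estimate and its 95% interval, and grey bars the range of estimates over the other settings; the intervals of Fos and Egr1 alone exclude 0, before adjustment for the number of genes tested.

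Non-normalized signals would have given another impression. All 9 tested genes had a higher mean signal in Ad-MafG livers, by ratios of 1.11 to 1.76 with a median of 1.27, but so did 85.6% of all genes tested, whose median ratio was 1.15. In 5 of the 9 every Ad-MafG signal lay above every Ad-Control signal, and over all genes that share was 42.5%. In the authors' deposited table of scaled group means, Fos had 352.7 in Ad-MafG and 191.1 in Ad-Control with a difference score of 6.62. The same authors' deposited table gives 3570.7 in Ad-MafG and 2348.5 in Ad-Control for Egr1, with a score of 8.04, and for Mafg a score of -33.6. Scores of the other 8 genes lay between -0.28 and 2.77 in the authors' deposited table.

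The spread from mouse to mouse was wide for part of the group. The SD of log2 intensity had a median of 0.23 in Ad-MafG livers and 0.21 in Ad-Control livers over the 9 genes, where the medians over all genes were 0.14 and 0.16. Among the 9 it ran from 0.04 for Junb to 0.66 for Atf3 in Ad-MafG livers, and from 0.04 for Junb to 0.43 for Atf3 in Ad-Control livers. Ad-MafG 2 was the lowest of the Ad-MafG livers for 8 of the 9 genes, the exception being Jund. Over all genes that liver was the lowest for 32.6%. Ad-Control 2 was the highest of the Ad-Control livers for 7 of the 9, where over all genes it was so for 35.3%. The 9 genes share their livers and arrays, so these counts describe 2 livers and are not 9 separate observations.

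**Figure D3:**
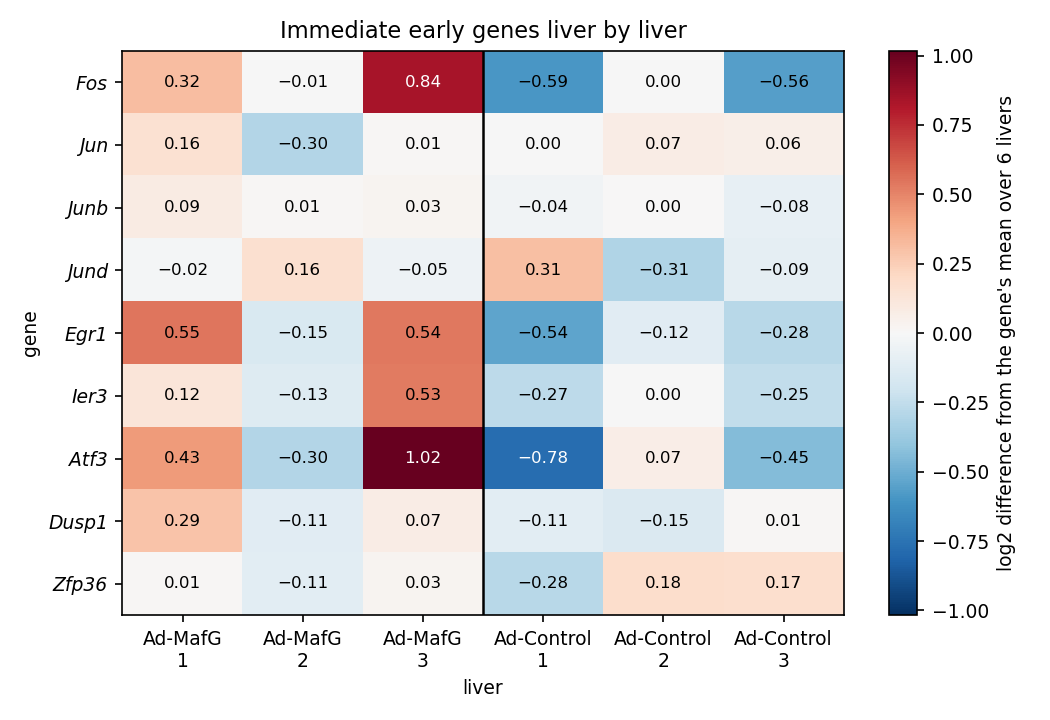
Difference of each liver (columns, Ad-MafG left of the line and Ad-Control right) from the mean of all 6 livers, in log2 units, for the 9 tested genes (rows). Fos, Egr1, Ier3 and Atf3 share a pattern in which Ad-MafG 1 and 3 are high, Ad-Control 1 and 3 are low, and the second liver of each group lies in between.

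Of genes outside the group, the 5 whose pattern over the 6 livers was most like the mean of the 9 were Pum3, Tfe3, Pik3cg, Hpgds and Dusp4, with Pearson correlations from 0.976 to 0.991 over 6 arrays. These are the highest of 8818 genes compared, over points that share array and liver, and are given as a description. Pum3 had a log2 fold change of 0.16 and Tfe3 one of 0.18, and none of the 5 passed the test (limma, adjusted p from 0.0982 to 0.406).

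Of 20 other immediate early genes tested, 3 rose and 0 fell, where 6.29% of all genes rose and 3.63% fell. The median log2 fold change of the 20 was 0.13. Sgk1, a kinase that responds to serum and glucocorticoid, had log2 intensities of 12.58, 12.46 and 12.58 in Ad-MafG livers and 12.04, 11.94 and 11.86 in Ad-Control livers. Every Ad-MafG liver was above every Ad-Control liver, and the log2 fold change was 0.60 (SE 0.10; limma, adjusted p = 0.0192). Mcl1, a survival protein of the BCL2 family, rose by 0.46 log2 units (SE 0.11; limma, adjusted p = 0.0409). Klf6, a zinc finger factor named after its values were seen, was the third, with a log2 fold change of 0.84 (SE 0.20; limma, adjusted p = 0.0458). Sgk1 missed the threshold without Ad-MafG 1, Ad-MafG 3 or Ad-Control 3 (up to 0.0704). Klf6 missed it without Ad-MafG 1, Ad-MafG 3, Ad-Control 1 or Ad-Control 3 (up to 0.133), and Mcl1 in all 6 single-array omissions (up to 0.124) and with arrays scaled on the median of detected probes (0.125).

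Egr2, a relative of Egr1, and Gadd45b, a stress-response gene, were also picked after their values were seen, since they were separate between the groups but did not pass. Of the 20 genes 5 were separate and higher and 2 separate and lower, where 18.3% and 17.9% of all genes were. Egr2 had log2 intensities of 8.23, 7.83 and 8.65 in Ad-MafG livers and 6.69, 7.71 and 6.61 in Ad-Control livers, again with Ad-MafG 2 and Ad-Control 2 nearest each other. Its log2 fold change was 1.23 (SE 0.33; limma, adjusted p = 0.056), and it passed in 9 of 18 alternatives. Gadd45b had a log2 fold change of 0.82 (limma, adjusted p = 0.0517) and passed in 11 of 18. Socs3, a feedback inhibitor of cytokine signalling, and Plk3, a stress-responsive kinase, were picked in the same way on the other side. Socs3 had a log2 fold change of -0.37 (limma, adjusted p = 0.0632) and Plk3 one of -0.75 (limma, adjusted p = 0.0927), and in both all Ad-MafG livers were below all Ad-Control livers. The count of 3 ran from 1 to 6 over the settings that kept every array, and from 0 to 3 with 1 array left out. It was 0 without Ad-MafG 3, and 1 without Ad-MafG 1, Ad-Control 1 or Ad-Control 3.

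Among other AP-1, ATF and small Maf subunits, 6 were tested, 1 rose and 1 fell, where 6.29% of all genes rose and 3.63% fell. Jdp2, a repressor that dimerises with JUN proteins, had log2 intensities of 7.78, 8.14 and 7.68 in Ad-MafG livers and 6.92, 7.02 and 7.19 in Ad-Control livers. Its groups were separate, and unlike most of the 9 genes it was highest in Ad-MafG 2. Jdp2 rose by 0.82 log2 units (SE 0.15; limma, adjusted p = 0.0233), and the call was lost without Ad-MafG 1 (0.0635) or Ad-Control 1 (0.0652). The gene that fell was Mafg, described above, and the list had 1 call at most in every single-array omission except that of Ad-Control 2.

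Counts for the upstream lists stand beside shares over all genes of 6.29% higher and 3.63% lower. In the list of SRF, ETS and CREB activators 5 were tested, 1 fell and 0 rose. Crem, which encodes CREB-like activators and repressors, fell by 0.69 log2 units (SE 0.17; limma, adjusted p = 0.0455), a call lost in every single-array omission except that of Ad-Control 2 (up to 0.139). Crtc3, a CREB coactivator, had a log2 fold change of -0.17 (limma, adjusted p = 0.413). In the MAP kinase cascade 13 were tested, 2 fell and 0 rose. Mapk8, which encodes JNK1, a kinase of the JUN protein, had log2 intensities of 8.11, 8.04 and 7.74 in Ad-MafG livers and 8.80, 8.49 and 8.74 in Ad-Control livers. All Ad-MafG livers were below all Ad-Control livers, and the log2 fold change was -0.71 (SE 0.14; limma, adjusted p = 0.0286). The call for Mapk8 was lost in every single-array omission except that of Ad-Control 2 (up to 0.0867). The receptor gene Egfr fell by 1.43 on the log2 scale (limma, adjusted p = 0.0475), a call lost in every single-array omission except that of Ad-Control 1 (up to 0.128).

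Other phosphatases and feedback inhibitors gave no call by limma among 11 tested. At an unadjusted p under 0.05 there were 2, where 29.8% of all genes reached that level. Dusp4, a nuclear MAP kinase phosphatase, had log2 intensities of 7.04, 6.06 and 7.34 in Ad-MafG livers and 5.60, 6.02 and 5.97 in Ad-Control livers, which puts Ad-MafG 2 level with the Ad-Control group. Its log2 fold change was 0.94 (SE 0.32; limma, adjusted p = 0.0982), or 1.31 when Ad-MafG 2 was left out (0.0328). Spry4, an inhibitor of receptor kinase signalling, had a log2 fold change of -0.34 (limma, adjusted p = 0.111). Among ZFP36 relatives and mRNA decay partners 5 were tested and 0 passed limma's threshold, with 0 at an unadjusted p under 0.05. Of these Zfp36l1 had a log2 fold change of -0.15 and Dcp1a, a decapping cofactor, one of -0.16.

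The lists of downstream and parallel stress genes had at most 1 call each, where 9.91% of all genes were called. Of 8 stress-kinase and cytokine outputs known to be under AP-1 or ZFP36 control, 1 rose and 0 fell, with a median log2 fold change of 0.51. Hmox1, the heme oxygenase gene that NRF2 also controls, had log2 intensities of 9.29, 9.31 and 9.82 in Ad-MafG livers and 8.59, 8.68 and 8.65 in Ad-Control livers. It rose by 0.84 log2 units (SE 0.16; limma, adjusted p = 0.0253) and missed the threshold without Ad-MafG 1, Ad-Control 1 or Ad-Control 3 (up to 0.0703). Without Ad-Control 2 the number called in this list was 3. Plaur, the urokinase receptor gene, had a log2 fold change of 0.47 (limma, adjusted p = 0.0628). Of 9 ATF4 and ATF3 stress genes, 1 rose and 0 fell. It was Ddit3, which encodes CHOP, with a log2 fold change of 0.52 (SE 0.12; limma, adjusted p = 0.0379). That call was lost in every single-array omission except that of Ad-Control 2 (up to 0.119). Another Ddit3 probe, read when all probes were tested separately, gave 0.38 and did not pass (limma, adjusted p = 0.21). Ppp1r15a, a feedback phosphatase subunit of the same response, had a log2 fold change of -0.36 (limma, adjusted p = 0.104). Of 9 heat shock genes 0 passed by limma, with 2 at an unadjusted p under 0.05, namely Hspb1 at -0.54 and Hspb8 at -0.42 on the log2 scale. That level was reached by 29.8% of all genes.

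**Figure D4:**
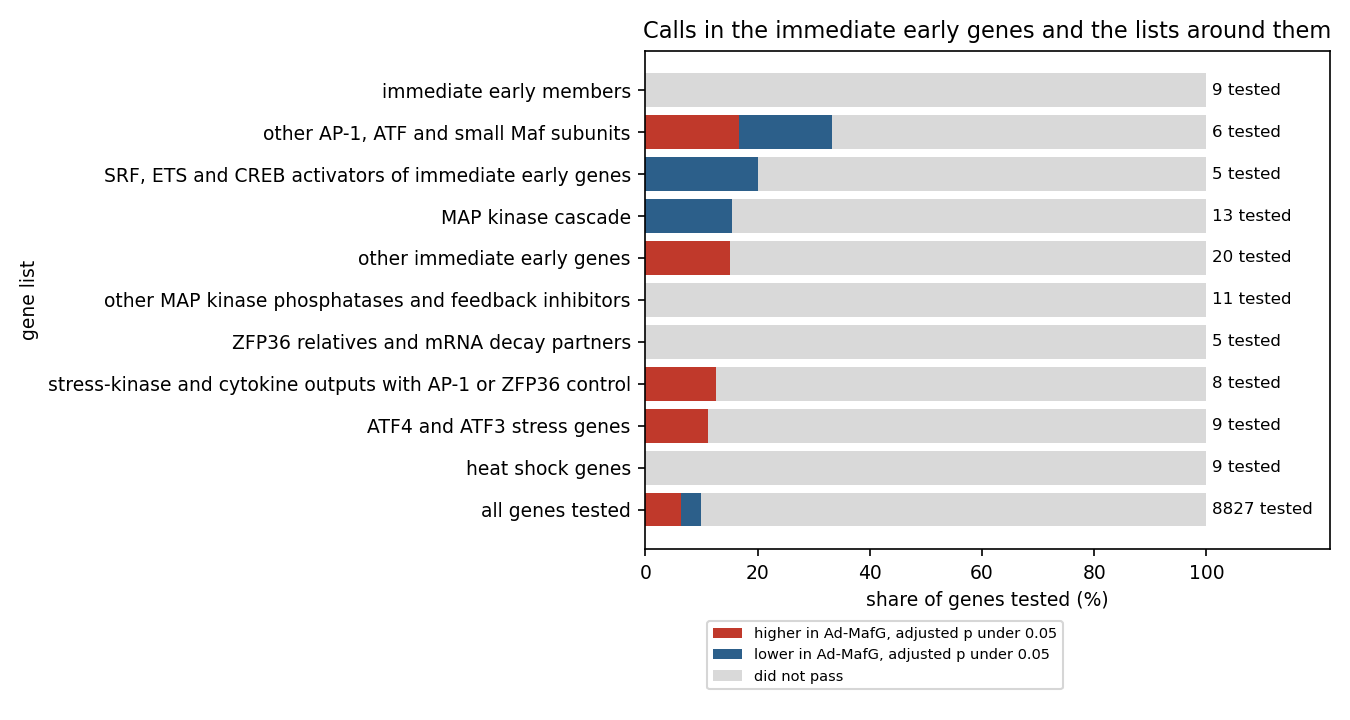
Share of tested genes (horizontal axis, %) called higher in Ad-MafG (red), called lower (blue) or not past the threshold (grey) for each list, with the number tested at the right. The immediate early members, the tested genes of this group, have no call, and over all 8827 genes tested 6.29% were higher and 3.63% lower.

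In these bulk samples a change in the number of cells of a type and a change in RNA per cell cannot be told apart. Kupffer cell and macrophage markers, whose cells can also express immediate early genes, rose for 5 of 9 tested (Adgre1, C1qa, C1qb, C1qc and Cd14) and fell for 0. Over all genes 6.29% rose and 3.63% fell. The resident Kupffer cell markers Clec4f (0.27 on the log2 scale) and Vsig4 (0.24) overlapped between the groups. Marco had a log2 fold change of -1.06 with all Ad-MafG livers below all Ad-Control livers (limma, adjusted p = 0.101), and Timd4, detected in 1 of 3 Ad-MafG livers and 3 of 3 Ad-Control livers, did not pass. Estimates in the list thus lay on both sides of 0, and its summed normalized intensity was 23532 to 26349 in Ad-MafG livers and 12006 to 15514 in Ad-Control livers. Stellate cell and fibroblast markers rose for 4 of 10 (Col1a1, Col1a2, Col3a1 and Lum). The summed intensity of all 10 was 15182 to 17905 in Ad-MafG livers and 13242 to 15051 in Ad-Control livers. Such sums weigh the brightest probes most. In the macrophage list these were Adgre1, C1qb and C1qc, all called. In the stellate list it was Dcn, which was not called (mean log2 intensity 13.47 in Ad-MafG and 13.30 in Ad-Control livers). Col1a2 was detected in 3 of 3 Ad-MafG livers and 0 of 3 Ad-Control livers. It met the detection filter only through the group where it was higher, so its call adds no separate support. Hepatocyte markers fell for 1 of 8, Pck1, with sums of 134337 to 142422 in Ad-MafG livers and 146537 to 155524 in Ad-Control livers. None of the 3 tested neutrophil, 4 T and NK cell, 2 B and plasma cell, 6 sinusoidal endothelial or 1 cholangiocyte markers passed by limma, and of 2 erythroid markers 1 fell. The neutrophil markers Mpo and Elane and the cholangiocyte markers Krt7 and Krt19 did not reach the detection filter. The part of these cell types in the values above was not tested.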

How the data were processed

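Total RNA of 6 livers was labelled and hybridised to Illumina BeadChips, all on 1 slide. The deposited non-normalized table holds, per the file headers, the mean bead intensity of each probe and a detection p-value, the chance of such a signal from background. A second deposited table holds scaled intensity values, straight lines of the first with slopes of 0.872 to 1.195, background-subtracted and with negative values; how they were scaled is not stated. The authors' deposited table of group means adds a difference score, per the file headers, whose error model is not stated.

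From the non-normalized intensities, limma 3.58.1 in R 4.3.3 removed background (normexp from detection p-values, offset 16), quantile normalized and took log2. Kept were probes whose detection p was below 0.05 on 3 or more arrays, and the probe with the highest mean stood for a gene. Of 25697 probes 23978 had 1 symbol, 0 several and 1719 none. Groups and replicate numbers came from the sample labels, and the 3 mice of a group are separate animals. They were compared with lmFit and eBayes, two-sided, without covariates; the fit was tested on simulated data. List symbols were matched through the platform or RefSeq. Probes are given no coordinates, since the array files name no build; the coordinates printed are those of RefSeq's promoter windows.

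The members, lists and alternatives were chosen with earlier results of these data known. Named were the 10 genes, Mafg, up to 2 genes of each of 9 lists with the smallest unadjusted p, and the 5 genes most like the members' mean profile; others are said to be chosen after their values were seen. Alternatives were no background correction, an offset of 50, median scaling over detected or (added after seeing the data) all probes, cyclic loess, the authors' scaled values, no detection filter or detection on all 6 arrays, all probes tested separately, array weights, trend and robust eBayes, a replicate block, and each array left out and the rest renormalized.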

Additional observations from a re-analysis of the deposited data

How the results depend on the processing

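The immediate early members had 0 calls under every alternative except 2, the omission of Ad-Control 2 or of Ad-MafG 2, so their range with 1 array left out was 0 to 1. Estimates of Fos, Egr1, Atf3, Ier3 and Junb kept their sign under all alternatives run. Signs turned for Jun, 0.036 with median scaling over all probes and -0.18 to 0.043 with 1 array left out, the highest without Ad-MafG 2. They turned for Jund, -0.019 with array weights and -0.075 to 0.23 with 1 array left out, below 0 without Ad-Control 2 and without Ad-MafG 2 (-0.0034). Dusp1 was -0.015 with median scaling. Zfp36 was 0.024 with array weights and -0.19 to 0.035 with 1 array left out, above 0 without Ad-Control 2 and without Ad-Control 3 (0.026). The cause of these turns was not tested. Dcp1a was 0.22 with all probes tested separately, a setting that leaves the estimate of any given probe unchanged. That value is therefore from another Dcp1a probe than the one used above. Median scaling over detected probes moved the median log2 fold change of all genes to -0.09, and 49.8% of its calls were higher (583 genes higher, 587 lower), against 63.4% without it. With median scaling over all probes 75.3% were higher.

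The number of genes called, 875, was 1322 with no background correction, 1319 with trend and robust eBayes, 141 with the replicate block and 191 to 1170 with 1 array left out. It was 374 or fewer in each such omission except that of Ad-Control 2. Under the replicate block, calls numbered 0 for AP-1 and small Maf subunits, SRF, ETS and CREB activators, the MAP kinase cascade, the stress-kinase outputs and the ATF4 genes, and 1 for other immediate early genes. The labels do not pair the mice by number, and deviations from the group means of same-numbered livers correlated across genes at 0.035, -0.138 and -0.125. The block left the adjusted p of Fos at 0.168 and of Egr1 at 0.18. Other immediate early genes had 6 calls with no background correction, 5 with an offset of 50, with either median scaling, with detection on all 6 arrays, with array weights and with trend and robust eBayes, and 1 with no detection filter. The SRF, ETS and CREB list had 0 with no detection filter and with median scaling over all probes. The MAP kinase list had 1 with no detection filter, array weights or trend and robust eBayes. The stress-kinase outputs had 2 with median scaling over all probes, and heat shock genes 1 with trend and robust eBayes. With 1 array left out the ranges were 0 to 2 for AP-1 and small Maf subunits, 0 to 1 for SRF, ETS and CREB activators, 0 to 1 for the MAP kinase cascade, 0 to 3 for other immediate early genes, 0 to 1 for phosphatases, 0 to 0 for ZFP36 relatives, 0 to 3 for stress-kinase outputs, 0 to 1 for ATF4 genes and 0 to 1 for heat shock genes. Signal over background limits Atf3, not detected in Ad-Control 1, and Ier2, detected nowhere. Jund was detected on all 6 arrays but was dim, with non-normalized signals of 195 to 244.9. Of the other genes named, Dusp4 was detected in 2 of 3 Ad-Control livers, Plaur in 1 of 3, and Crtc3 in 2 of 3 livers of each group.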
